A study of Hordeum vulgare with 12 samples.

Results

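The stem base of barley seedlings at 1 day after germination (1DAG) was compared between plants carrying AtCKX1 and wild-type plants of the spring cultivar Golden Promise (cv. GP). The comparison rests on 6 of the 12 RNA-seq libraries of the series, 3 labelled as an AtCKX1-overexpressing line at 1DAG and 3 labelled as wild-type cv. GP at 1DAG. The members were defined by these labels, and the comparison was chosen with earlier results of these data known. The other 6 libraries hold the same genotypes at 10DAG and entered the model as well. AtCKX1 is an Arabidopsis gene for a cytokinin dehydrogenase, and the series describes its lines as holding less cytokinin than wild type. The paper describes the wild-type libraries only, and the promoter of the transgene and the number of lines behind the 3 libraries are not given in the sources used here. Both genotypes were germinated on wet filter paper and cut at the stem base, the crown from which the post-embryonic crown roots (CR) emerge. Each wild-type library is described as an independent biological replicate made from pooled seedlings. Where nothing says the same of the AtCKX1 libraries, p-values measure only the spread between these samples. Levels in bulk tissue cannot separate fewer cells of a type from less RNA per cell.

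Cytokinins are adenine-derived hormones that promote cell division and shoot growth and that oppose the initiation of roots in many plants. Isopentenyl transferases (IPT) make their precursors, LOG-type phosphoribohydrolases release the active bases, and cytokinin dehydrogenases (CKX) and glycosyltransferases remove them. The signal passes by phosphotransfer to B-type response regulators, which activate transcription. A-type response regulators are induced by the hormone and dampen the response, and many CKX genes are induced by it as well.

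The AtCKX1 libraries at 1DAG held 42364228 to 47683587 reads assigned to genes and the wild-type libraries at 1DAG 39647015 to 49131251. The 3 AtCKX1 libraries were alike, with a Pearson correlation of 0.987 to 0.989 across genes on the log2 scale between any pair, against 0.944 to 0.984 in wild type. Wild type replicate 1 stood apart: 1740 genes lay at least 2-fold above both other wild-type libraries in it, while this number was 92 to 382 in each of the other 5 libraries. The summed levels of marker lists of green tissue and of root overlapped between the genotypes. The summed level of 12 photosynthesis genes was 194 to 223 CPM (counts per 1000000 assigned reads, scaled by TMM) in AtCKX1 libraries and 168 to 290 CPM in wild type, with no member at 0 counts in any library. The summed level of 11 root uptake and endodermis genes was 58.9 to 64.9 CPM in AtCKX1 and 56.0 to 69.4 CPM in wild type, with 1 to 4 members at 0 counts in a library. Of the 10 root genes tested, 0 lay higher and 3 lower in AtCKX1 with no overlap of libraries. For the 12 photosynthesis genes these numbers were 1 and 2, and for all 20212 genes tested 2047 and 2279. Alpha-amylase (MLOC_55142), which digests starch in the germinating grain and marks grain tissue here, stood at 26, 25 and 18.9 CPM in AtCKX1 and at 51.2, 27.4 and 83.9 CPM in wild type. The amylase libraries did not overlap between genotypes (log2 fold change -1.22, edgeR adjusted p = 0.213), and its part in the results below was not tested.

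The transgene checked the labels. Reads on the AtCKX1 identifier (AT2G41510) numbered 16, 11 and 18 in the 3 AtCKX1 libraries at 1DAG, against 0, 0 and 0 in wild type. The genotypes were fully separated, at 0.351 ± 0.103 CPM in AtCKX1 (SD, n = 3). Set against a floor of 3 counts over the wild-type group, this is at least 15-fold higher. At these counts the transgene did not pass the quasi-likelihood test of edgeR after adjustment (adjusted p = 0.127), and it passed the Wald test of DESeq2 (adjusted p = 0.00521). At 10DAG the transgene had 42, 7 and 12 counts in AtCKX1 and again 0 in each wild-type library. The transgene was thus a low-level transcript in these counts: barley CKX4 (Hv_CKX4), counted in the same libraries, had 1066, 1103 and 1182 counts in AtCKX1. Levels of the pair of genes are not corrected for length.

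Few genes were called between the genotypes by the main test, edgeR. A gene was called when its adjusted p (edgeR, Benjamini-Hochberg over all genes) was at most 0.05 and its change at least 2-fold. Of 20212 genes tested, 33 were called higher and 69 lower in AtCKX1, together 0.505% of the genes (0.163% higher and 0.341% lower). Libraries of the genotypes did not overlap in any of the 102 called genes, and they did not overlap in 21.4% of all genes tested. At an unadjusted p under 0.05 there were 1171 higher and 2446 lower genes. The median log2 fold change of all genes was 0.03.

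**Figure D1:**
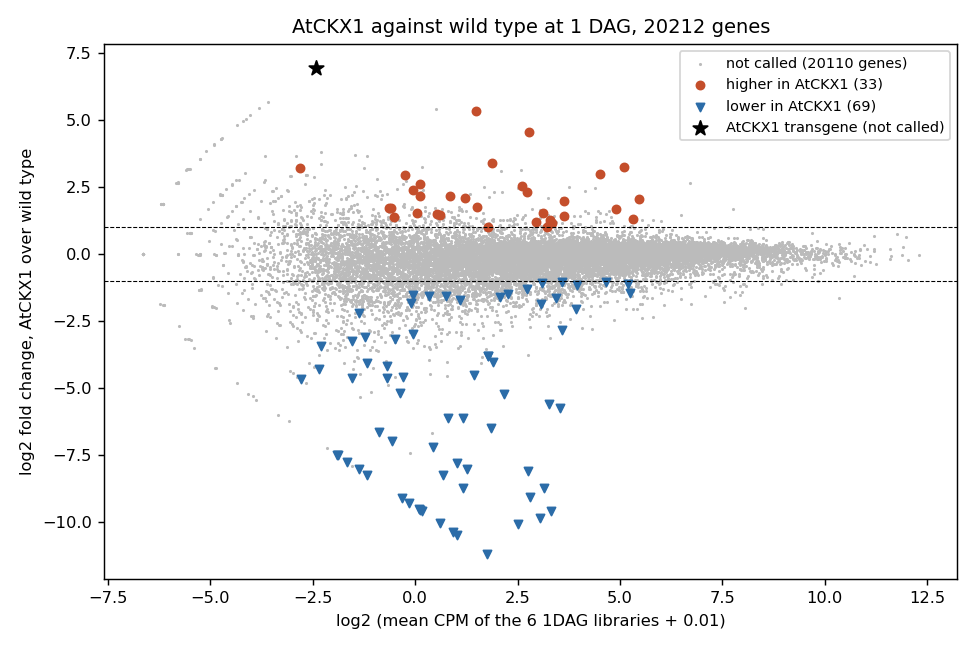
Log2 fold change of AtCKX1 over wild type at 1DAG (vertical axis) against the mean level of the 6 libraries (horizontal axis, log2 of CPM + 0.01) for 20212 genes. The 33 genes called higher (circles) reach a log2 fold change of 5.34 and the 69 called lower (triangles) spread far below, to -11.20, a fitted value for a gene with 0 counts in AtCKX1. The star is the transgene, which was not called, and dashed lines mark a 2-fold change.

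The falls were far deeper than the rises. Of the 69 genes lower in AtCKX1, 43 fell more than 16-fold, 10 fell 4- to 16-fold and 16 fell less than 4-fold. Of the 33 higher genes, 2 rose more than 16-fold, 14 rose 4- to 16-fold and 17 rose less than 4-fold. The 43 deepest falls had a median of 3.02 CPM in wild type, and 14 of them had no count in any AtCKX1 library. For these 14 the fold is a lower bound against 3 counts over the AtCKX1 group, and it was between at least 21.4-fold and at least 283-fold lower. The median log2 fold change of the 69 genes was -4.66 as fitted and -4.61 with the 14 genes at their bound. Wild type replicate 1, the library that stands apart, was the highest wild-type library in 35 of the 69 and the lowest in 16. Replicate 2 was the highest in 21 and replicate 3 in 13.

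The count depends on the tool and on single libraries. DESeq2 called 139 higher and 582 lower genes, 721 in all, and 101 of the 102 genes were among them. Leaving out AtCKX1 replicate 1, 2 or 3 gave 55, 52 or 51 calls, and leaving out wild type replicate 3 gave 250, while 80 were called without wild type replicate 1 and 98 without replicate 2.

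A function was available for 14 of the 102 called genes, because functions were read from a study table of genes that are higher at 10DAG than at 1DAG in the wild type. Of the 1340 tested genes with a function, 1.04% were called. The choice favours genes that were low in the wild-type 1DAG libraries used here as the reference, so the 9 rises against 5 falls among them carry no independent information on direction. None of the 125 EPlHVUG identifiers tested by edgeR was called, with 0 higher and 14 lower genes at an unadjusted p under 0.05 and 4 lower by DESeq2.

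**Figure D2:**
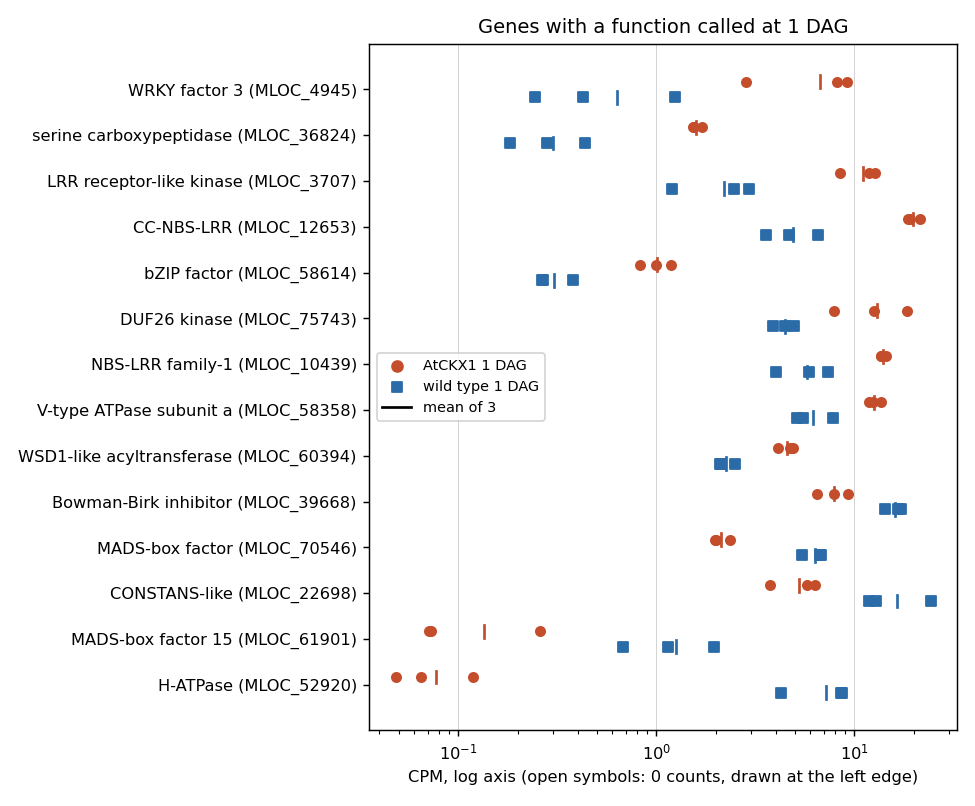
Level of the 14 called genes with a function in each 1DAG library, in CPM on a log axis, with AtCKX1 libraries (circles) drawn above wild type (squares) in each row and a bar at each mean of 3. The genotypes do not overlap in any row, and the widest gap is that of the H-ATPase, at 0.0771 CPM in AtCKX1 and 7.17 CPM in wild type.

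A pair of NBS-LRR genes rose, neither of which belongs to the list of pathogen response genes. That list had 0 called of 25 tested by edgeR (6 higher and 1 lower at an unadjusted p under 0.05, and 1 higher by DESeq2). Of all genes tested, edgeR called 0.505%. No list here covers NBS-LRR genes, so the share of them that was called is not known. The CC-NBS-LRR gene MLOC_12653, of the family of intracellular immune receptors that detect pathogen effectors, had 18.6, 21.4 and 19.1 CPM in AtCKX1, against 3.57, 4.67 and 6.52 CPM in wild type. This gene rose 4.00-fold (log2 fold change 2.00 ± 0.20 (SE), edgeR adjusted p = 0.000776), and every alternative setting called it. A second gene of that family, MLOC_10439 (NBS-LRR family-1), had 13.7, 14.4 and 13.7 CPM in AtCKX1 and 4.00, 5.89 and 7.33 CPM in wild type (log2 fold change 1.29, adjusted p = 0.0191 by edgeR). The call on MLOC_10439 was lost without any 1 AtCKX1 library or without wild type replicate 2. AtCKX1 libraries were tightly grouped for both genes, and the lowest of them was well above the highest wild-type library.

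A pair of receptor-like kinases rose as well, of which MLOC_75743 alone belongs to the list of receptor-like and TKL kinases. MLOC_3707, a leucine-rich repeat receptor-like kinase, a class of surface receptors that sense peptides and other ligands, had 11.9, 8.51 and 12.7 CPM in AtCKX1, against 1.20, 2.94 and 2.46 CPM in wild type. It rose 5.05-fold (log2 fold change 2.33 ± 0.28 (SE), edgeR adjusted p = 0.00314). MLOC_75743, a DUF26 kinase of the cysteine-rich receptor-like class, had 12.5, 7.91 and 18.5 CPM in AtCKX1 and 3.90, 4.96 and 4.46 CPM in wild type. Its change of 1.55 ± 0.25 on the log2 scale passed the test (adjusted p = 0.0208 by edgeR), with AtCKX1 replicate 3 highest and replicate 2 nearest to wild type. It was not called without AtCKX1 replicate 1, without AtCKX1 replicate 3 or without wild type replicate 1.

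Among called transcription factors with a function, the largest rise was that of WRKY transcription factor 3 (MLOC_4945), of a plant family that binds W-box motifs in genes of defence and senescence. Its level was 8.15, 9.16 and 2.84 CPM in AtCKX1, against 0.427, 0.243 and 1.24 CPM in wild type. This is 10.5-fold higher in the mean (log2 fold change 3.42 ± 0.64 (SE), edgeR adjusted p = 0.0414), with a wide spread within each genotype, and the call was lost when either of AtCKX1 replicates 1 and 2 or wild type replicates 1 and 2 was left out. MLOC_58614, a bZIP factor of the TGA class, which in Arabidopsis acts with the salicylic acid receptor in defence, had 0.827, 0.991 and 1.19 CPM in AtCKX1 and 0.264, 0.268 and 0.380 CPM in wild type. The bZIP factor rose by 1.72 on the log2 scale (adjusted p = 0.0297 by edgeR) at a low level, and leaving out any single 1DAG library other than wild type replicate 3 ended the call. WRKY factors as a list had 1 higher and 0 lower of 34 tested, and bZIP factors 1 higher and 0 lower of 13.

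Called transcription factors that fell were a pair of MADS-box genes and a CONSTANS-like gene. No list here covers these families, so the share of their members that was called is not known. MADS-box factors shape meristem and flower identity in plants. MLOC_70546 had 2.36, 2.00 and 1.97 CPM in AtCKX1, against 6.82, 5.47 and 6.67 CPM in wild type, and fell by 1.58 on the log2 scale (SE 0.16, edgeR adjusted p = 0.000813). MADS-box transcription factor 15 (MLOC_61901) was lower still, at 0.0709, 0.259 and 0.0728 CPM in AtCKX1 against 1.14, 0.681 and 1.95 CPM in wild type (log2 fold change -3.18 ± 0.58 (SE), adjusted p = 0.0375 by edgeR). These are 3, 12 and 3 counts in AtCKX1, so the size of this fall is uncertain, and the call was lost without AtCKX1 replicate 1 or 3 or without wild type replicate 1.

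The CONSTANS-like gene MLOC_22698 is of the B-box zinc finger family, whose Arabidopsis namesake links day length to flowering. It had 6.31, 5.78 and 3.76 CPM in AtCKX1, against 24.3, 11.9 and 12.9 CPM in wild type (log2 fold change -1.63 ± 0.31 (SE), edgeR adjusted p = 0.0451). Wild type replicate 1, the library that stands apart, was the highest for it, and without that library, or without any 1 of the AtCKX1 libraries, the gene was not called.

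Proton pumps changed in both directions. The H-ATPase MLOC_52920, a P3A pump of the type that exports protons across the plasma membrane and so energizes nutrient uptake, had 5, 3 and 2 counts in AtCKX1, against 426, 175 and 339 counts in wild type. In CPM these are 0.118, 0.0646 and 0.0486 in AtCKX1 and 8.65, 4.26 and 8.59 in wild type. It fell 92.6-fold (log2 fold change -6.49 ± 0.54 (SE), edgeR adjusted p = 0.000273), the deepest fall among genes with a function. Every setting that kept this gene called it, and the minimum of 10 counts in every library removed it. At 10DAG its fold was alike at a higher level in both genotypes: 0.381, 0.998 and 1.18 CPM in AtCKX1 against 66.0, 59.4 and 98.1 CPM in wild type (log2 fold change -6.45, adjusted p = 4.3e-05 by edgeR).

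The other pump that passed the test was subunit a of the V-type proton ATPase (MLOC_58358), the membrane part of the complex that acidifies the vacuole. It had 13.6, 12.4 and 11.8 CPM in AtCKX1 and 5.52, 5.16 and 7.78 CPM in wild type, 2.05-fold higher in AtCKX1 (log2 fold change 1.03, edgeR adjusted p = 0.0352). This gene lies at the fold limit, and 12 of 18 alternatives did not call it. The list of pumps and ABC transporters thus had 1 higher and 1 lower of 26 tested. Its median log2 fold change was 0.40, against 0.07 over the tested genes with a function and 0.03 over all genes. Its members come from the table of genes higher at 10DAG than at 1DAG in the wild type, a choice that favours rises here. Library medians of the list, on the log2 scale against the wild-type mean, overlapped between genotypes. They were 0.40, 0.21 and 0.61 in AtCKX1 and -0.41, 0.07 and 0.35 in wild type. Without wild type replicate 1 the median log2 fold change of the list was 0.22.

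Of the remaining called genes with a function, a pair belongs to proteolysis. Serine carboxypeptidase MLOC_36824, of the S10 class that trims C-terminal residues of proteins, had 1.70, 1.53 and 1.55 CPM in AtCKX1, against 0.183, 0.438 and 0.279 CPM in wild type (log2 fold change 2.41 ± 0.37 (SE), edgeR adjusted p = 0.0144). It was not called when any 1 AtCKX1 library was left out. The Bowman-Birk trypsin inhibitor MLOC_39668, a small protein that blocks serine proteases, had 7.91, 6.44 and 9.25 CPM in AtCKX1 and 17.2, 16.6 and 14.3 CPM in wild type. It fell by 1.03 on the log2 scale (adjusted p = 0.0317 by edgeR), and it was not called in 11 of 18 alternatives. The proteolysis list had 1 higher and 1 lower of 51 tested.

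The O-acyltransferase MLOC_60394 is of the WSD1 type, named after an Arabidopsis enzyme that makes wax esters. It had 4.72, 4.12 and 4.88 CPM in AtCKX1 and 2.13, 2.09 and 2.51 CPM in wild type (log2 fold change 1.03, edgeR adjusted p = 0.0466). It also lies at the limits, and 13 of 18 alternatives did not call it.

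The largest changes were in genes with no function in the sources used here, which make up 88 of the 102 called genes (24 higher and 64 lower). MLOC_69385 had 200, 294 and 216 counts in AtCKX1, against 6, 5 and 6 counts in wild type, a 41.1-fold rise (log2 fold change 5.34 ± 0.55 (SE), edgeR adjusted p = 0.000854). MLOC_67076 had 426, 553 and 731 counts in AtCKX1 and 24, 40 and 9 counts in wild type, 23.4-fold higher (log2 fold change 4.55 ± 0.57 (SE), adjusted p = 0.00359 by edgeR). Both were called in every alternative that kept them.

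The largest falls as fitted were of genes with no read in AtCKX1, and since their folds are only bounds, genes with a few reads may have fallen as far. MLOC_49609 had 0 counts in each AtCKX1 library, against 175, 297 and 377 counts in wild type, at least 283-fold lower against the floor of 3 counts over the group (edgeR adjusted p = 0.0351). MLOC_52761 had 0 counts in each AtCKX1 library and 157, 151 and 208 counts in wild type, at least 172-fold lower (adjusted p = 0.0121 by edgeR). Both calls were lost when any 1 AtCKX1 library was left out, and that of MLOC_49609 also without wild type replicate 1 or 2, although the counts themselves do not overlap. Over all identifiers, 7 genes had 0 counts in every AtCKX1 library and at least 50 in every wild-type library, and 0 genes showed the opposite. With up to 5 counts allowed in the low genotype these numbers were 21 and 0. All 21 were called lower at 1DAG, which choosing them by the same counts made likely. At 10DAG, in other libraries, 19 of them were called lower.

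The cytokinin genes showed no called change. Of 11 listed genes tested by edgeR, 0 were called, 1 was higher and 1 lower at an unadjusted p under 0.05, and DESeq2 called 1 lower. Of all 20212 genes tested, edgeR called 0.505% and 17.9% had an unadjusted p under 0.05. At these shares a list of 11 genes is too small for its 0 calls to show that the pathway was unchanged. The median log2 fold change of the list was 0.00. The genes of the pathway are given here by role.

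**Figure D3:**
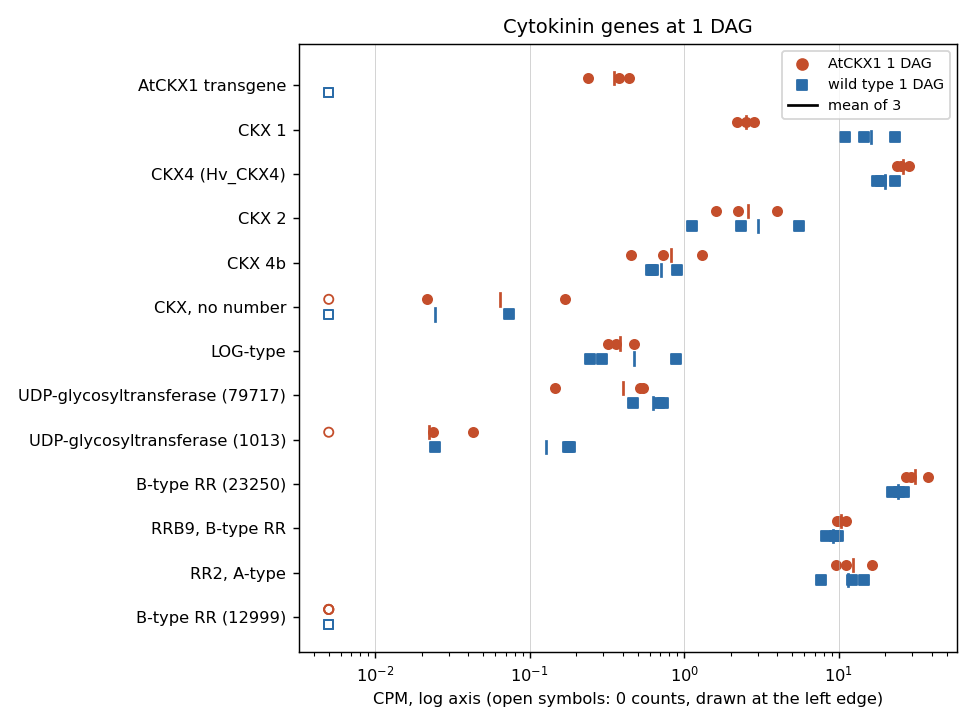
Level of the transgene, barley CKX4 and the 11 listed cytokinin genes in each 1DAG library, in CPM on a log axis, with AtCKX1 libraries (circles) drawn above wild type (squares), a bar at each mean of 3 and open symbols for 0 counts. CKX stands for cytokinin dehydrogenase and RR for response regulator. Cytokinin oxidase/dehydrogenase 1 (CKX 1) shows the widest gap among the barley genes, at 2.51 CPM in AtCKX1 and 16.3 CPM in wild type.

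Among genes of cytokinin removal, cytokinin oxidase/dehydrogenase 1 (MLOC_58639) had 119, 117 and 91 counts in AtCKX1, against 540, 600 and 920 counts in wild type. In CPM these are 2.81, 2.52 and 2.21 in AtCKX1 and 11, 14.6 and 23.3 in wild type. The libraries did not overlap, and the mean was 6.49-fold lower in AtCKX1, but the gene missed the edgeR threshold (log2 fold change -2.69 ± 0.68 (SE), adjusted p = 0.137). It passed in only 2 of 18 alternatives, which were DESeq2 on all libraries (adjusted p = 0.00946) and a fit of the 6 libraries at 1DAG. At 10DAG its level was 40.8, 3.49 and 17.8 CPM in AtCKX1 and 81.0, 40 and 40.4 CPM in wild type.

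No other dehydrogenase gene was lower in all AtCKX1 libraries. Hv_CKX4, named in the counts and chosen for the text after its values were seen, had 25.2, 23.8 and 28.7 CPM in AtCKX1 and 17.7, 18.9 and 23 CPM in wild type (log2 fold change 0.38, edgeR adjusted p = 0.359), so its libraries did not overlap but lay higher in AtCKX1, and it was not called. Cytokinin dehydrogenase 2 (MLOC_11021) overlapped between genotypes, at 3.99, 2.22 and 1.60 CPM in AtCKX1 and 1.12, 2.34 and 5.53 CPM in wild type. So did cytokinin dehydrogenase 4b (MLOC_16499), at 0.453 to 1.30 CPM in AtCKX1 and 0.608 to 0.900 CPM in wild type. The last of the listed dehydrogenases (MLOC_81291) had 0, 1 and 7 counts in AtCKX1 and 0, 3 and 0 counts in wild type, too few to compare.

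Genes for making and conjugating cytokinins were low in both genotypes. The LOG-type gene MLOC_6567 had 20, 15 and 15 counts in AtCKX1 and 12, 12 and 35 counts in wild type. The isopentenyl transferase genes Hv_IPT2, Hv_IPT5 and Hv_IPT7, also chosen after their values were seen, had 0 counts in every AtCKX1 library and 0 or 1 in wild type, so no difference in them was detectable at this depth. Of the UDP-glycosyltransferases of the list, MLOC_79717 had 23, 24 and 6 counts in AtCKX1 and 23, 30 and 27 counts in wild type, and MLOC_1013 had 1, 2 and 0 counts in AtCKX1 and 9, 1 and 7 counts in wild type.

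Response regulators differed by less than the test could call. The B-type regulator MLOC_23250 had 29.3, 27.4 and 37.6 CPM in AtCKX1 and 22, 24.4 and 26.4 CPM in wild type (log2 fold change 0.37 ± 0.15 (SE), edgeR adjusted p = 0.247). RRB9 (MLOC_61880), also of the B type, had 9.78, 11.1 and 9.98 CPM in AtCKX1 and 9.42, 8.25 and 9.84 CPM in wild type (log2 fold change 0.16 ± 0.12 (SE), adjusted p = 0.449 by edgeR). The A-type gene response regulator 2 (MLOC_36886), whose class is induced by the hormone, had 11.1, 9.63 and 16.5 CPM in AtCKX1 and 7.72, 14.5 and 12.2 CPM in wild type. Its estimate was 0.11 ± 0.25 on the log2 scale with overlapping libraries, and the B-type gene MLOC_12999 had 0 counts in all 6 libraries at 1DAG.

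The 10 genes for which the study lists PCR primers, among them regulators of crown-root initiation, were not called either. This was 0 of 10 by edgeR and 0 by DESeq2, with 0 higher and 1 lower at an unadjusted p under 0.05. As edgeR called 0.505% of all genes, 0 of 10 does not set this panel apart from other genes. CRL1.1 (MLOC_10784), a LOB-domain factor whose rice orthologue is required for crown roots, had 10.8, 13.7 and 9.35 CPM in AtCKX1 and 13.8, 13.3 and 13.7 CPM in wild type (log2 fold change -0.26 ± 0.20 (SE)). The IAA-amino acid hydrolase MLOC_70768, which frees auxin from its conjugates, was the 1 lower gene, at 8.20, 6.36 and 8.52 CPM in AtCKX1 and 12.9, 9.0 and 9.63 CPM in wild type (log2 fold change -0.45, edgeR adjusted p = 0.234).

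The remaining members of this panel moved little. The auxin efflux carrier PIN (MLOC_24846), SCARECROW-like1 (MLOC_6971), Argonaute (MLOC_4898), AUX/IAA20 (MLOC_73144), CRY1b (MLOC_64083), CRY2 (MLOC_8289) and the histone deacetylase (MLOC_71091) had log2 fold changes of 0.04 to 0.26 and adjusted p of 0.361 or more by edgeR. CRY1b (a blue-light receptor) had the smallest of these estimates (log2 fold change 0.04 ± 0.12 (SE)), and its libraries overlapped between genotypes.

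Gene lists were described by counts and medians. Of 37 lists, 32 held no called gene and 5 held 1 or 2 (proteolysis, pumps and ABC transporters, WRKY factors, bZIP factors, and receptor-like and TKL kinases). In all, 7 genes of the lists were called by edgeR, 5 higher and 2 lower, against 55 by DESeq2. The kinase list had 1 higher and 0 lower of 128 tested, and its median log2 fold change was 0.30. At an unadjusted p under 0.05 it had 39 higher and 12 lower genes. These numbers were 159 and 149 of the 1340 tested genes with a function, from which the lists are drawn, and 1171 and 2446 of all 20212 genes. Library medians of the list, on the log2 scale against the wild-type mean, overlapped between genotypes. They were 0.45, 0.18 and 0.37 in AtCKX1 and -0.30, 0.08 and 0.23 in wild type. Without wild type replicate 1 the median log2 fold change of the list was 0.15. Its called gene, MLOC_75743, was then no longer called, while MLOC_3707, outside the list, still was.

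**Figure D4:**
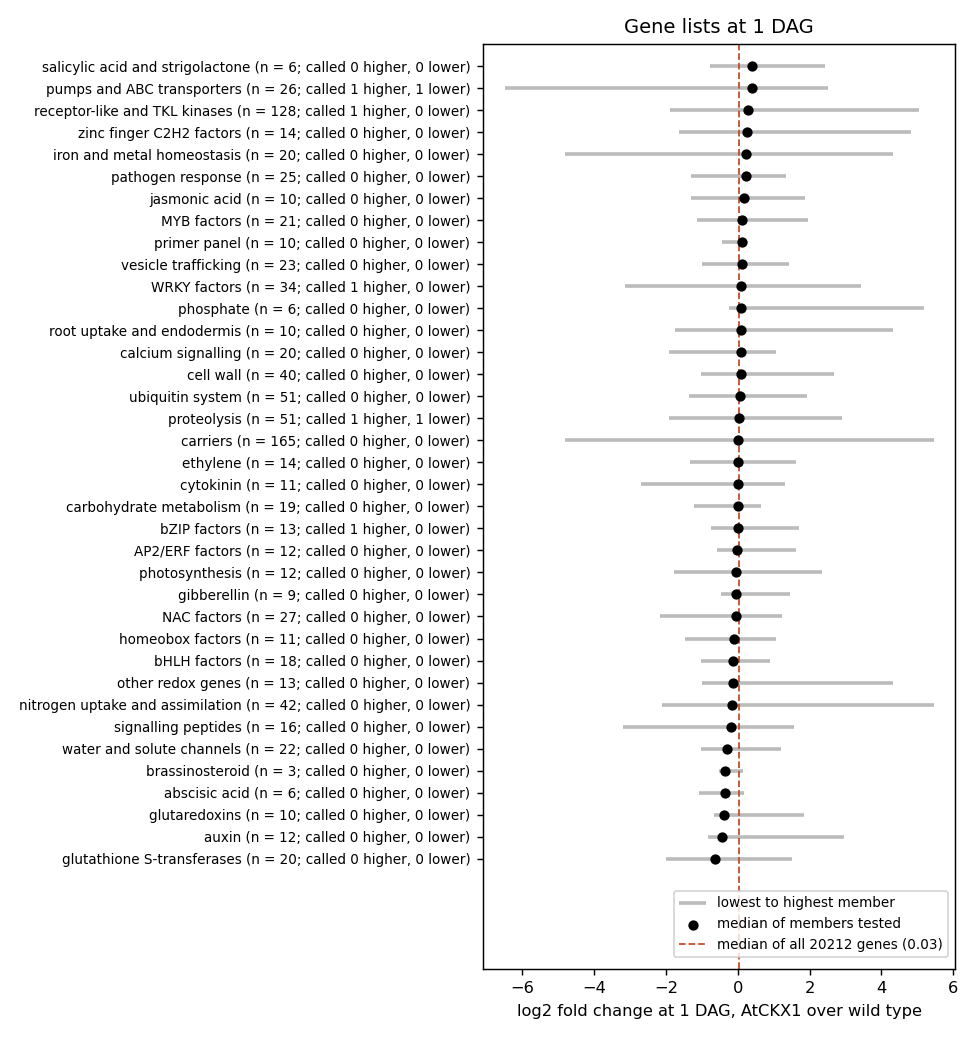
Median log2 fold change of AtCKX1 over wild type at 1DAG for 37 gene lists (points), with the range from the lowest to the highest member (grey lines), the number tested and the calls in each label, and the median of all genes as a dashed line at 0.03. Medians run between -0.62 for glutathione S-transferases and 0.41 for salicylic acid and strigolactone genes, and most lists hold no called gene.

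Among the hormone lists, edgeR called 0 of 12 auxin genes, 0 of 14 ethylene genes, 0 of 6 abscisic acid genes, 0 of 9 gibberellin genes, 0 of 10 jasmonic acid genes, 0 of 6 salicylic acid and strigolactone genes and 0 of 3 brassinosteroid genes. Of all 20212 genes tested, edgeR called 0.505%, 17.9% had an unadjusted p under 0.05 and DESeq2 called 721. Lists this small would hold few or no calls at these shares, so the counts do not show that these pathways were unchanged. At an unadjusted p under 0.05 the auxin list had 1 higher and 3 lower genes, the ethylene list 3 and 2, the abscisic acid list 0 and 1, the gibberellin list 1 and 0, the jasmonic acid list 1 and 1, the salicylic acid and strigolactone list 2 and 0, and the brassinosteroid list 0 and 1. DESeq2 called 1 higher auxin gene, 1 higher gibberellin gene, 1 higher gene of salicylic acid and strigolactone and 1 lower jasmonic acid gene, and none in the other hormone lists of this paragraph. The auxin gene was an efflux carrier of the PIN family (MLOC_60446), named here after its values were seen, with 9, 11 and 14 counts in AtCKX1 and 1, 2 and 1 counts in wild type (log2 fold change 2.97 ± 0.67 (SE), edgeR adjusted p = 0.0989).

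Glutathione S-transferases, enzymes that conjugate glutathione to xenobiotics and to products of oxidative stress, had the lowest median of all lists. Of 20 tested, 17 had an estimate below 0 and 3 above, with a median log2 fold change of -0.62. None was called by edgeR, 8 were lower at an unadjusted p under 0.05, and DESeq2 called 4 lower. The same numbers of lower genes were 149 and 32 of the 1340 tested genes with a function, and 2446 and 582 of all 20212 genes. MLOC_72858, singled out after its values were seen, had 4.06, 5.28 and 4.13 CPM in AtCKX1 and 21, 8.0 and 12.7 CPM in wild type (log2 fold change -1.63 ± 0.40 (SE), edgeR adjusted p = 0.127). MLOC_38769 had 14.9, 19.9 and 11.5 CPM in AtCKX1 and 55.7, 21.6 and 39.9 CPM in wild type (log2 fold change -1.34, adjusted p = 0.189 by edgeR), with wild type replicate 1 the highest library for both genes. Without wild type replicate 1 the median of the list was -0.53 and 0 members were called. As with every list here, its genes come from the table of genes higher at 10DAG in the wild type.

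The 10DAG libraries of the same genotypes were compared in the same fit. The contrasts share no library, but they share the estimate of the spread, and the 10DAG count moved to between 190 and 506 when single 1DAG libraries were left out (506 without wild type 1DAG replicate 1). At 10DAG, 132 genes were higher and 118 lower in AtCKX1, 1.24% of the genes tested (0.653% higher and 0.584% lower). Of the 69 genes called lower at 1DAG, 44 were also called lower at 10DAG, which is 63.8% of the 1DAG list and 37.3% of the 10DAG list. Of the 33 genes called higher at 1DAG, 7 were also called higher at 10DAG, 21.2% of the 1DAG list and 5.30% of the 10DAG list. Called or not, the 10DAG estimate had the same sign in 66 of the 69 falls and in 31 of the 33 rises. No gene was called in opposite directions at both ages, but 1 gene without a function, called lower at 1DAG (log2 fold change -1.11, adjusted p = 0.021 by edgeR), was higher at 10DAG just below the fold limit (0.97, adjusted p = 0.0225 by edgeR). Of the 43 falls beyond 16-fold, 35 were called lower at 10DAG, against 4 of the 16 falls below 4-fold.

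**Figure D5:**
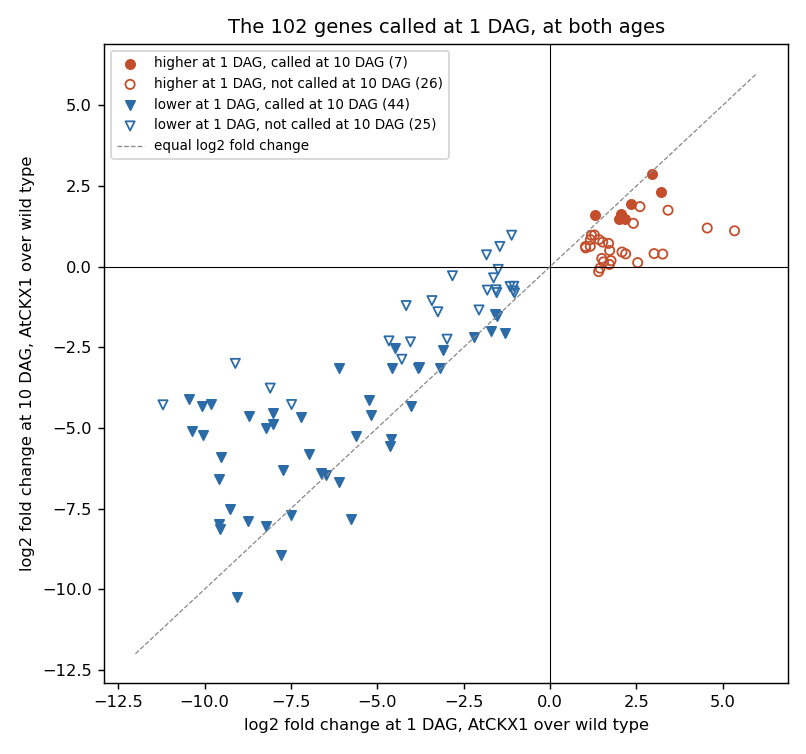
Log2 fold change of AtCKX1 over wild type at 10DAG (vertical axis) against that at 1DAG (horizontal axis) for the 102 genes called at 1DAG, with filled symbols where the gene was also called at 10DAG and a dashed line of equal change. Of the 69 falls (triangles), 44 are filled, while 7 of the 33 rises (circles) are filled, and most rises lie below the line. The genes were chosen by their 1DAG values, and this choice by itself favours smaller changes at 10DAG.

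Among the named genes, the immune receptor gene MLOC_12653 (log2 fold change 1.47 at 10DAG, edgeR adjusted p = 0.00271) and the receptor-like kinase MLOC_3707 (1.93, adjusted p = 0.0046 by edgeR) rose at both ages. MLOC_52920, MLOC_61901 and MLOC_70546 fell at both. The bZIP factor MLOC_58614 and the DUF26 kinase MLOC_75743 were near 0 at 10DAG (log2 fold changes of 0.07 and 0.15), but their difference between the ages did not pass the test (adjusted p = 0.133 and 0.162 by edgeR).

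The difference of the genotype effects between 1DAG and 10DAG was called for 98 genes, 0.485% of those tested (0.0792% with a higher and 0.406% with a lower effect at 1DAG), of which 7 belong to the 102 genes. None of the 7 has a function in the sources used here. Of these, 3 rose at 1DAG, with log2 fold changes of 2.54 to 5.34 at 1DAG and 0.12 to 1.11 at 10DAG, and 4 fell at 1DAG, with -2.83 to -1.11 at 1DAG and -0.29 to 0.97 at 10DAG. MLOC_69385 was 1 of the 3, with 48, 17 and 35 counts in AtCKX1 at 10DAG and 32, 7 and 10 counts in wild type at 10DAG. Its genotype effect was larger at 1DAG by 4.23 on the log2 scale (adjusted p = 0.0259 by edgeR).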

How the data were processed

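RNA of stem bases was sequenced from stranded Illumina TruSeq libraries, and the submitters' processing notes name TopHat, HTSeq 0.6.0 and DESeq2. The deposited values are raw counts per gene that the authors made with TopHat on the genome of cv. Morex IBSC_v1 and HTSeq, with no normalization. Reads outside genes (22.1% to 23.9% in the 1DAG libraries) and reads aligned more than once (8.60% to 10.3%) were left out, so copies of near-identical genes are uncertain. Of 26073 identifiers, 0 matched the RefSeq gene table of MorexV3, so no positions or sequences are given.

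Counts were fitted in R 4.3.3 with edgeR 4.0.16: filterByExpr, TMM factors, and the robust quasi-likelihood test on all 12 libraries with 4 group means, followed by Benjamini-Hochberg adjustment. CPM use the same factors and are given as mean ± SD of 3 libraries. Standard errors are approximate (log2 fold change over the root of the test statistic). Folds against a group at 0 are lower bounds that set it to 3 counts in all, and cover counting error only. An exact permutation of 3 against 3 cannot give a two-sided p below 0.1. The method was run on simulated data with 200 changed genes, in which no library stood apart as wild type replicate 1 did. The outcome of that run is not used here. DESeq2 1.42.0, other scalings, filters and sets of libraries were alternatives.

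Named genes are the transgene, the cytokinin list and the genes with PCR primers, up to 3 called genes per list, the 15 largest rises and falls with a function, the 2 largest without one in each direction, genes at 0 counts in 1 genotype (given as a number where they have no function), and up to 5 with a function that differed between ages, of which there were 0. The members and lists were chosen with earlier results of these data known. Functions come from the readable part of the study's table of genes higher at 10DAG (1348 genes).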

Additional observations from a re-analysis of the deposited data

Results flagged for a closer look

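The genotype effect differed between the ages, by the interaction test of edgeR, for 98 genes, of which 16 had a higher and 82 a lower effect at 1DAG than at 10DAG. DESeq2 called 289. Of the genes named in the report, MLOC_69385 was in this set: its rise in AtCKX1 was larger at 1DAG than at 10DAG by 4.23 on the log2 scale (SE 0.71, n = 3 libraries per group, edgeR adjusted p = 0.0259), and its AtCKX1 libraries lay above wild type in 3 of 3 at 1DAG. Groups of 3 are too small for a test of single deviating samples.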

How the results depend on the processing

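The count at 1DAG (102 genes) stayed within 1.5 times, at 79 to 115, without robust dispersion, without a fold limit or a low-count filter, with library totals or upper-quartile factors, and without wild type 1DAG replicate 1 and wild type 10DAG replicate 2. It was 721 by DESeq2, 25 with at least 10 counts in every library, 48 by glmTreat, 42 from the 6 1DAG libraries alone, and 51 to 250 with 1 library left out. DESeq2 without these deviating libraries, added after seeing the data, called 216. The difference between ages (98 genes) was called for 289 by DESeq2, 292 without that pair, 9 by glmTreat and 34 to 123 with 1 library left out. The 10DAG count (250) was 527 by DESeq2, 533 without that pair, 48 by glmTreat and 190 to 506 with 1 1DAG library left out, the highest without wild type 1DAG replicate 1. List members called (7) were 55 by DESeq2, 22 without that pair, 1 with at least 10 counts, 1 by glmTreat, 2 from the 6 1DAG libraries, 2 by edgeR without the pair and 1 to 19 with 1 library left out. These recounts of the lists were added after seeing the data. The minimum of 10 counts removes the genes with none in AtCKX1, and causes of the other shifts were not tested.

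The transgene (fitted log2 fold change 6.94, edgeR) was past the threshold only by DESeq2, at 6.36, and at 6.28 without the pair. It ranged from 6.76 to 7.15 with 1 library left out, and it was not kept with at least 10 counts in every library or in the 6-library fit. Of the 18 called genes named, 4 were called in every alternative that kept them, and none changed sign. Of 26 named genes that were not called, 21 were called in no alternative.

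The labels do not say that replicate numbers pair the samples. Deviations of same-numbered AtCKX1 and wild-type libraries at 1DAG correlated at 0.179, 0.039 and -0.102 across genes, and not every library correlated best with its own number. With the replicate number as a block (replicate block), 62 genes were called at 1DAG, 47 for the difference between ages, 173 at 10DAG and 3 in the lists.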

Other observations

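The 21 genes with at most 5 counts in each AtCKX1 library and at least 50 in each wild-type library at 1DAG did not all stay at that level at 10DAG. In 11 of them AtCKX1 10DAG replicate 2 held 6.57% to 19.8% of the wild-type mean (median 10.0%), while the same genes held at most 3.69% in AtCKX1 10DAG replicates 1 and 3. In the other 10 genes replicate 2 held at most 4.25%. At 1DAG the highest share in any AtCKX1 library was 5.83%, from 4 counts of MLOC_1504. The lowest shares above rest on few reads. The 6.57% in replicate 2 and the 3.69% in replicate 1 at 10DAG were 2 counts and 1 count of MLOC_1504. MLOC_31095 had 5 counts in replicate 2. For example, MLOC_49609 had 1, 45 and 0 counts in AtCKX1 at 10DAG against 328, 229 and 260 in wild type, and MLOC_52761 had 0, 18 and 1 counts against 117, 96 and 90. The limit of 5% was chosen after the values were seen, these 21 genes were chosen by their 1DAG counts, and the cause was not tested.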
